A study of Mus musculus with 26 samples.

Results

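The mouse major histocompatibility complex (MHC) genes and the genes that load peptides on their products were followed in neurospheres (NSPs) that differentiated into astrocytes with or without tumor necrosis factor (TNF). The members were all probe sets of the array whose gene symbols start with H2-, the mouse MHC, together with *B2m*, *Tap1*, *Tap2*, *Tapbp*, *Tapbpl*, *Erap1*, *Nlrc5*, *Ciita*, *Cd74*, *Pdia3*, *Calr* and *Canx*. This gave 67 probe sets of 35556. Of these, 2 belong to class Ia, 25 to class Ib, 9 to class II and 9 to class I assembly and loading. *Cd74* and *Ciita* have 1 probe set each, *Nlrc5* has 19, and 1 is *H2-Ke6*, a gene of the region that encodes a metabolic enzyme. In all, 8 probe sets carry several symbols. Both class Ia probe sets list *H2-K1* and *H2-D1*, and also LOC547349, a symbol without the H2- prefix for which RefSeq gives H2-K1 as a synonym. They were kept for that reason, and 65 probe sets remain without them.

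MHC class I molecules display peptides from inside the cell to CD8+ T cells. Peptides cut by the proteasome are carried into the endoplasmic reticulum (ER) by the transporter TAP, trimmed by ERAP1, and bound to a heavy chain and β2-microglobulin (*B2m*) while calreticulin, ERp57 (*Pdia3*) and tapasin (*Tapbp*) hold the complex. Class Ia heavy chains are the classical, polymorphic ones, class Ib heavy chains are less polymorphic and often restricted to few tissues, and class II molecules display peptides of endocytosed proteins on professional antigen-presenting cells. NLRC5 is known as the transactivator of class I genes and CIITA as that of class II genes, and healthy neural tissue is known for low MHC expression.

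RNA was measured on 26 Affymetrix MoGene 1.0 ST arrays. The cells were neural stem cells of the ventricular zone of C57BL/6J mouse embryos at embryonic day 14. They were grown as NSPs in medium with epidermal growth factor, then differentiated on poly-L-ornithine in medium with 10% fetal bovine serum. Every group harvested after 0 h received this serum medium. The 0 h arrays mark the start of differentiation, so that comparisons with 0 h also span the change of medium and the plating. TNF-treated NSPs got 50 ng/mL TNF from 0 h and were harvested at 6, 24, 48 h (3 arrays each) and 72 h (2 arrays), against untreated NSPs harvested at 0, 6, 24, 48 and 72 h (3 arrays each). The labels number the replicates but do not tie them to cultures or litters, so the p-values measure the spread between these arrays, part of which may be technical. All signals are log2 values on the scale of the robust multi-array average (RMA). Array medians lay between 7.54 and 7.76, and no pair of arrays held identical values. Probe sets in the lowest 40% of mean signal (log2 signal of 7.14 or less) are called dim, and 34 of the 67 were dim, with 19 of 25 in class Ib, 7 of 9 in class II and 0 of 9 in class I loading. All 10 astrocyte and radial glia markers were above that boundary, with mean signals of 11.5 to 12.8 over the arrays.

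With TNF, both class Ia probe sets, 5 of 25 class Ib probe sets and 6 of 9 class I loading genes were called higher at 1 or more of 24, 48 and 72 h, and no class II probe set was called. Each value was tested with limma over all 35556 probe sets, and a probe set was called when its q-value, the share of false calls expected at that rank, was under 0.05. At 24 h 10 of 67 members were called higher, where 0.627% of all probe sets were. At 48 h 11 were called higher, against 0.773% of all probe sets, and at 72 h 10 were, against 0.596%. No member was called lower at any of the 4 times, where 0.0141%, 0.236%, 0.264% and 0.554% of all probe sets were. The arrays of the groups did not overlap, with TNF higher, for 6, 25, 17 and 26 members at 6, 24, 48 and 72 h, where this held for 4.31%, 6.85%, 6.41% and 19% of all probe sets. With TNF lower it held for 1, 0, 3 and 9 members, against 4.24%, 7.31%, 5.76% and 22%. At 6 h 0 members were called by limma, where 0.312% of all probe sets were called higher. An unadjusted p under 0.05 was found for 5 of the 67 members and for 1768 of all 35556 probe sets. Taken over the times, 13 members were called at 1 time or more and 7 at 24, 48 and 72 h, counts that were not taken over all probe sets. The median log2 fold change of the class I loading genes was 0.18, 0.65, 0.75 and 0.58 at 6, 24, 48 and 72 h, that of class Ib was −0.01, 0.19, −0.02 and 0.04, and that of class II was −0.04, 0.07, −0.14 and −0.08. Over all probe sets the median was −0.04, 0.01, −0.02 and −0.02. In such bulk RNA a change in the share of cells that express a gene and a change in RNA per cell cannot be told apart.

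**Figure D1:**
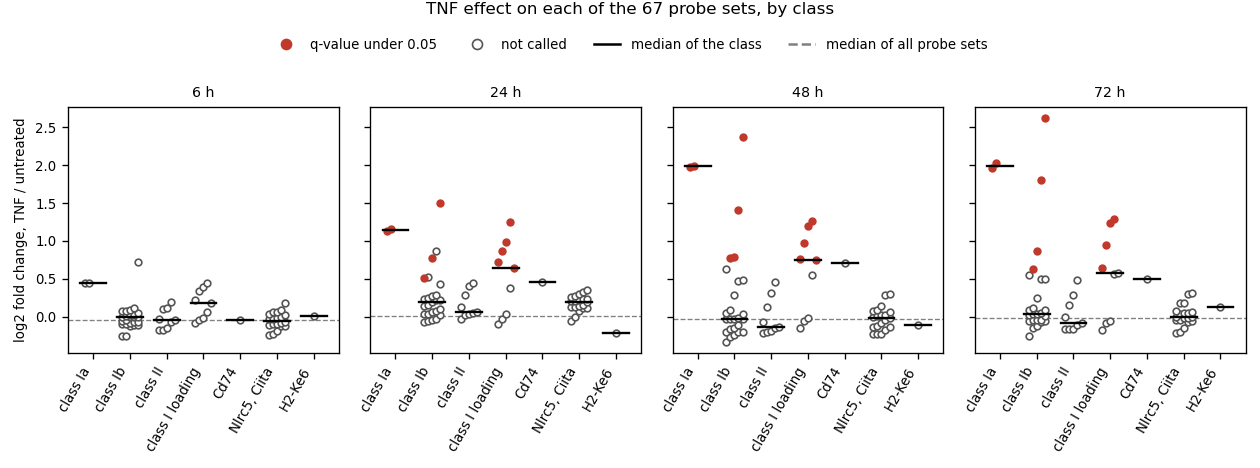
Log2 fold change of TNF-treated over untreated NSPs (vertical axis) of each of the 67 probe sets at 6, 24, 48 and 72 h, by class. Filled points are the calls (0, 10, 11 and 10 members at the 4 times), open points were not called, black bars are class medians and the dashed line is the median of all probe sets; no class II point is filled at any time.

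The stretches of DNA upstream of class I genes are shown because motifs were counted in them, for members that were called and members that were not. The sequences are from RefSeq (GRCm38.p6) and lie within the 250 bases before the transcript start, with 3 motifs in capitals, searched on both strands. The NF-κB-like motif is GGG and CC with 5 bases of any kind between them, the ISRE-like motif (interferon-stimulated response element) is GAAA repeated after 2 bases of any kind, and CCAAT is the core of the Y box. Matches that overlap run together in capitals. *H2-D1* (chr17:35262904-35263083, + strand) stands for class Ia. *H2-Q4* (chr17:35379427-35379606, + strand), *H2-Q6* (chr17:35424660-35424839, + strand) and *H2-M2* (chr17:37483565-37483744, − strand) stand for the class Ib genes named by probe sets that rose.
H2-D1: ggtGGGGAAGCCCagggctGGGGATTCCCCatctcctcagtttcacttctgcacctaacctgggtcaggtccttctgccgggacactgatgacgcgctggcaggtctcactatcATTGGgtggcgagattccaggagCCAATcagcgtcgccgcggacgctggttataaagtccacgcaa
H2-Q4: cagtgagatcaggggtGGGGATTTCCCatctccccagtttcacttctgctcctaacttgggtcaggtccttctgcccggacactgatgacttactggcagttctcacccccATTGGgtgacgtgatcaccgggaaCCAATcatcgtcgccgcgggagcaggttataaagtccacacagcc
H2-Q6: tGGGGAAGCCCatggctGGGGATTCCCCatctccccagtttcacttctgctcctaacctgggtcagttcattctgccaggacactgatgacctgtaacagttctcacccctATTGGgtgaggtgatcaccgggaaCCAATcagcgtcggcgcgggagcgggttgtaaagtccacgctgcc
H2-M2: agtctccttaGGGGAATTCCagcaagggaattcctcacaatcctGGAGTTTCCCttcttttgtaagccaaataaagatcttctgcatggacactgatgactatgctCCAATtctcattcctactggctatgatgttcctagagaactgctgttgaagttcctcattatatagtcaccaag
*H2-T23* (chr17:36032712-36032891, − strand) and *H2-Q2* (chr17:35342117-35342296, + strand) are class Ib genes that were not called.
H2-T23: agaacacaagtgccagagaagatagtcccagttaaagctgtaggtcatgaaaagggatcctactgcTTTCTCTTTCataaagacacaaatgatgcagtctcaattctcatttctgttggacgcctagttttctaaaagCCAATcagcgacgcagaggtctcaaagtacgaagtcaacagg
H2-Q2: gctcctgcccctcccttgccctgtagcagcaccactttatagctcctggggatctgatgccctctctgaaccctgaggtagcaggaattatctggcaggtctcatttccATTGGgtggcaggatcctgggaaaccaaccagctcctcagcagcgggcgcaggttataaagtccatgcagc
*B2m* (chr2:122147497-122147676, + strand), which encodes the light chain of MHC class I molecules, is shown for its capitals of all 3 kinds.
B2m: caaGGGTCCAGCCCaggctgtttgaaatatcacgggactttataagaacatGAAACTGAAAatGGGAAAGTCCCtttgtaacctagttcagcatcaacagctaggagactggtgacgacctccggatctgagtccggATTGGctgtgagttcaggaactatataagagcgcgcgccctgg
The heavy chain genes with a window and a probe set called higher were *H2-K1*, *H2-D1*, *H2-Q4*, *H2-Q6* and *H2-M2*. Within the 250 bases before the start all 5 held the NF-κB-like motif, against 4 of 17 class Ib genes that were not called. Of the 20 class Ib probe sets never called 17 were dim, where a rise may go undetected. Called and uncalled genes thus also differ in signal. Of the uncalled genes with a window whose probe sets were not dim, *H2-T22* held the motif and *H2-T23* and *H2-T-ps* did not. *H2-K1* and *H2-D1* share their probe sets, and *H2-Q6* shares its own with *H2-Q8*, which was called only at 48 h. Which of the genes that share a probe set rose cannot be told. The motif is common, as 45.8% of 32851 such windows of all genes hold it, and 5 of 8 class II genes with a window have it in at least 1, none of which was called. Of the class I loading genes with a window, 2 of 4 that were called and 2 of 3 that were not called held it. The 10 bases GGGGATTCCC were picked after the windows were read, because those of *H2-D1*, *H2-K1* and *H2-Q6* all hold them. Their presence before these genes was thus fixed by the choice. They stand in 0.0852% of all windows (28 windows). The ISRE-like motif, in 2.98% of all windows, was found before *B2m*, *H2-T22* and *H2-T23*. CCAAT, in 33.8%, was found before all 5 heavy chain genes with a called probe set and 14 of the 17 others. A match describes letters and is not a binding site. The windows of the near-identical class I genes share descent, so that they are not independent of each other.

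**Figure D2:**
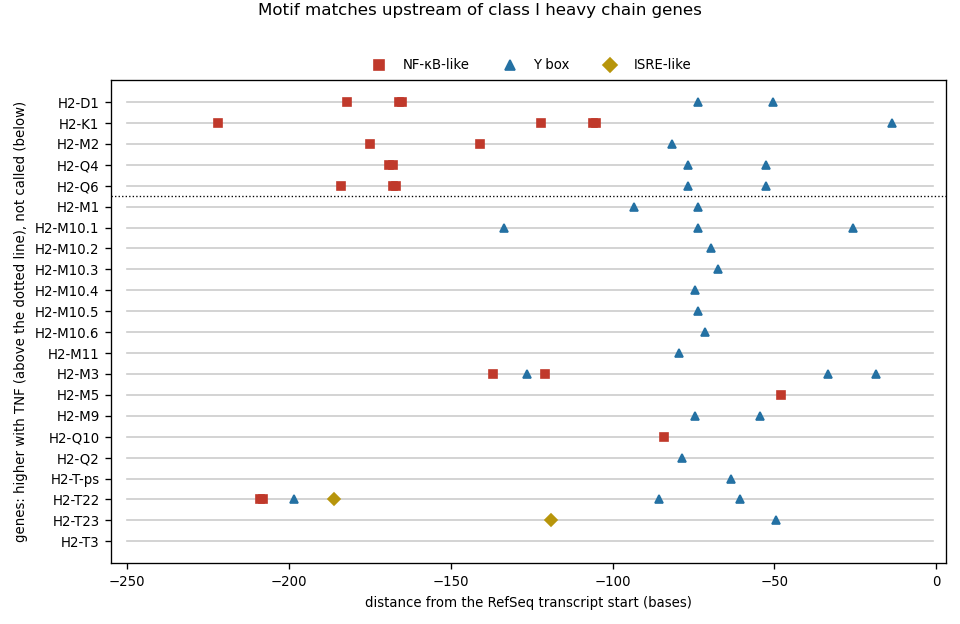
Position of each motif match (horizontal axis, bases from the RefSeq transcript start) upstream of 22 class I heavy chain genes, with 1 start shown per gene. Squares are the NF-κB-like motif, triangles CCAAT (Y box) and diamonds the ISRE-like motif. The 5 genes above the dotted line are named by probe sets that were higher with TNF. All 5 have at least 1 square, as do 4 of the 17 below it, most of which have dim probe sets.

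The class Ia genes *H2-K1* (chr17:33996012-34000619) and *H2-D1* (chr17:35263094-35267497) encode the classical heavy chains of this strain. Their probe sets name both genes and moved together (Pearson r = 0.981 over 26 arrays, with differences of −0.29 to 0.43 between them), so that the genes cannot be told apart here. In the probe set whose annotation lists *H2-D1* first, TNF-treated NSPs had log2 signals of 9.98, 10.52 and 10.39 at 24 h, against 8.93, 9.36 and 9.11 in untreated NSPs. At 48 h the TNF-treated arrays were at 11.03, 11.65 and 11.44, and the untreated arrays at 9.09, 9.84 and 9.22. At 72 h the 2 TNF-treated arrays were at 11.51 and 11.64, and the untreated arrays at 9.42, 9.89 and 9.36. At each of these times every TNF-treated array lay above every untreated one. The log2 fold change was 1.16 at 24 h (SE 0.205, q = 0.00402). It was 1.99 at 48 h (SE 0.205, q = 4.18e-06), and the 72 h value was 2.02 (SE 0.23, q = 2.23e-05), a 4.06-fold difference. At 6 h TNF-treated arrays were at 9.39, 9.65 and 9.09, against 8.95, 9.02 and 8.82 in untreated NSPs. The 6 h groups did not overlap either, but the value of 0.45 (SE 0.205, q = 0.894) was not called. The other probe set, which lists *H2-K1* first, had 1.13 (SE 0.235, q = 0.0176), 1.98 and 1.96 at 24, 48 and 72 h. Its call at 24 h was lost without untreated replicate 1 or 3 or TNF-treated replicate 2 or 3 (log2 fold changes of 1.0 to 1.31 over the arrays left out, q up to 0.146).

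Of the class Ib genes, *H2-Q4* (chr17:35379617-35384674), a heavy chain gene of the Qa region, had the largest TNF effect of all members at each of the 4 times. At 24 h it was at 8.05, 8.60 and 8.94 in TNF-treated NSPs, against 7.0, 7.03 and 7.05 in untreated NSPs. At 48 h it was at 9.39, 9.67 and 9.90 with TNF, against 7.10, 7.56 and 7.18 without. At 72 h it was at 9.86 and 9.94 with TNF, against 7.11, 7.57 and 7.16 without. Every TNF-treated array lay above every untreated one at these times. The log2 fold changes were 1.5 (SE 0.243, q = 0.00166), 2.37 (SE 0.243, q = 4.03e-06) and 2.62 (SE 0.272, q = 6.84e-06), the last a 6.14-fold difference. At 6 h the TNF-treated arrays, at 7.50, 8.30 and 7.59, lay above the untreated ones, at 6.91, 7.33 and 6.98, and the value of 0.72 (SE 0.243, q = 0.559) was not called.

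*H2-M2* (chr17:37480851-37483554), a class Ib gene at the distal end of the complex, was dim. In TNF-treated NSPs it was at 6.04, 6.36 and 6.26 at 24 h, against 5.53, 5.13 and 5.41 in untreated NSPs. The 48 h arrays were at 6.55, 7.80 and 6.99 with TNF, against 5.90, 5.59 and 5.62 without. At 72 h it was at 7.27 and 7.63 with TNF, against 5.57, 5.66 and 5.73 without. At each of these times the groups did not overlap, and only 1 TNF-treated array of 48 h and both of 72 h were above the boundary of the dim range. The log2 fold change was 0.86 at 24 h (SE 0.237, q = 0.117, not called), 1.41 at 48 h (SE 0.237, q = 0.00194), and the 72 h value was 1.80 (SE 0.265, q = 0.000565). At 6 h the value was −0.08 (q = 0.916), and the groups overlapped.

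*H2-K2*, annotated as a transcribed pseudogene next to *H2-K1*, was also dim and rose by 0.77 (SE 0.131, q = 0.00273), 0.78 (SE 0.131, q = 0.0018) and 0.87 (SE 0.146, q = 0.0029) at 24, 48 and 72 h. *H2-Q5*, another transcribed pseudogene, had 0.51 (SE 0.119, q = 0.0411), 0.47 (q = 0.0599, not called) and 0.64 (SE 0.133, q = 0.0202). The probe set shared by *H2-Q6* and *H2-Q8*, which encode Qa-2 type heavy chains, had 0.43 (q = 0.438) and 0.56 (q = 0.157) at 24 and 72 h and was called at 48 h (0.78, SE 0.156, q = 0.0108). At 48 h that probe set was at 7.95, 8.60 and 8.21 with TNF, against 7.49, 7.57 and 7.36 without, and the groups did not overlap. Class I genes are close copies of each other, so that signal of an abundant one may reach the probes of another, which was not tested. *H2-K2* lost its call at 72 h without TNF-treated replicate 1 (q = 0.226, 0.64), *H2-Q6* and *H2-Q8* lost theirs without untreated replicate 1 or 3 or TNF-treated replicate 2 (q up to 0.129), and *H2-Q5* kept its call at 24 h only without untreated replicate 2 and at 72 h only without untreated replicate 2 of that time (q up to 0.28 and 0.229 without the others).

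The other 20 class Ib probe sets were called at no time, and 17 of them were dim. Their log2 fold changes ran from −0.25 to 0.12 at 6 h, −0.06 to 0.52 at 24 h, −0.33 to 0.63 at 48 h and −0.26 to 0.49 at 72 h. The highest values at 24, 48 and 72 h were those of the probe set of *H2-T23*, whose product Qa-1 presents leader peptides of other class I chains and is read by NKG2 receptors. It was at 8.46, 8.75 and 8.59 in TNF-treated NSPs at 24 h, against 7.82, 8.29 and 8.12 in untreated NSPs (0.52, SE 0.202, q = 0.54). At 48 h it was at 8.49, 9.01 and 9.02 with TNF, against 8.03, 8.5 and 8.08 without, where 1 untreated array overlapped (0.63, SE 0.202, q = 0.218). Its 72 h value was 0.49 (SE 0.226, q = 0.474). This probe set also names *H2-T-ps*. The *H2-M10* genes, known from vomeronasal sensory neurons, were all dim and uncalled, as were *H2-M1*, *H2-M3*, *H2-M5*, *H2-M9*, *H2-M11* and *H2-Q10*.

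**Figure D3:**
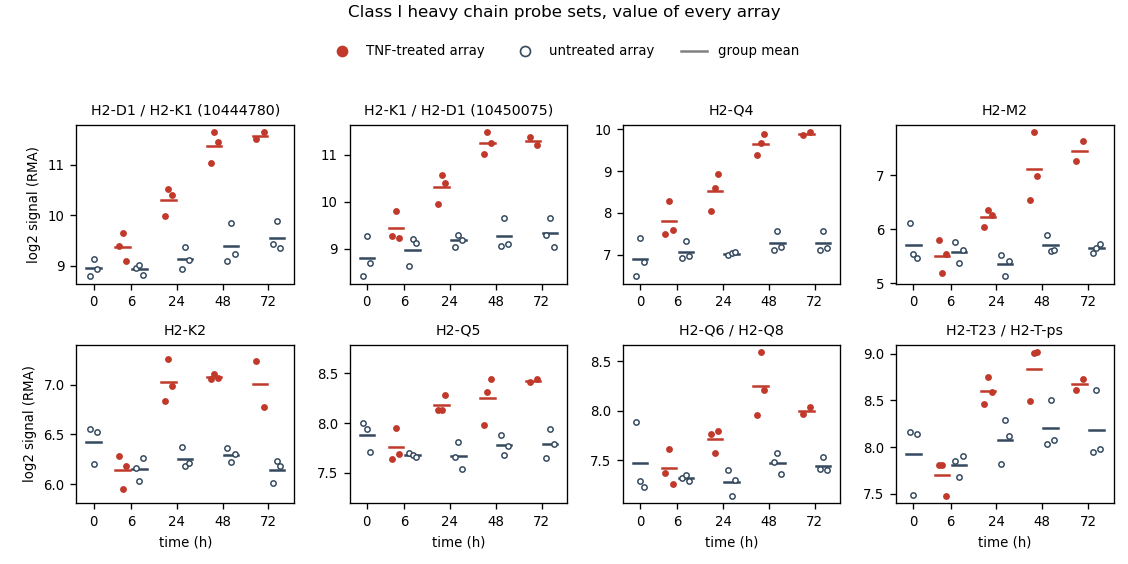
Log2 signal (vertical axis) of every array at 0, 6, 24, 48 and 72 h (horizontal axis) for 8 class I heavy chain probe sets, with filled points for TNF-treated and open points for untreated arrays and bars for group means. For both class Ia probe sets and *H2-Q4* the TNF-treated arrays lie above the untreated ones at all 4 times, with TNF effects of 1.96 to 2.62 at 72 h; *H2-T23*, which was not called, overlaps at 6 and 48 h.

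Among the class I loading genes, both subunits of the peptide transporter rose. *Tap1* (chr17:34187556-34197225) was at 8.21, 8.64 and 8.53 in TNF-treated NSPs at 24 h, against 7.50, 7.75 and 7.54 in untreated NSPs. At 48 h it was at 8.80, 9.23 and 9.24 with TNF, against 7.85, 7.96 and 7.70 without. At 72 h it was at 9.10 and 9.05 with TNF, against 7.77, 8.04 and 7.74 without. The groups did not overlap at any of the 4 times. The log2 fold changes were 0.86 (SE 0.134, q = 0.00106), 1.26 (SE 0.134, q = 6.36e-06) and 1.23 (SE 0.149, q = 5.28e-05). At 6 h *Tap1* was at 8.0, 8.16 and 8.07 with TNF, against 7.46, 7.76 and 7.68 without (0.44, SE 0.134, q = 0.395). With the replicate number as a block this 6 h value was called (q = 0.044), the only member that was. *Tap2* (chr17:34204479-34216321) was at 9.45, 9.49 and 9.69 with TNF at 24 h, against 8.40, 8.21 and 8.25 without. Its log2 fold change was 1.25 (SE 0.128, q = 5.13e-06), 1.2 (SE 0.128, q = 6.4e-06) and 1.29 (SE 0.143, q = 1.6e-05) at 24, 48 and 72 h, and 0.39 (SE 0.128, q = 0.52) at 6 h. For *Tap1* and *Tap2* every call from 24 h on was kept whichever array was left out.

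*Tapbp*, which encodes tapasin, the bridge between the transporter and the heavy chain, was at 11.13, 11.20 and 11.31 in TNF-treated NSPs at 24 h, against 10.07, 10.25 and 10.36 in untreated NSPs. It rose by 0.98 (SE 0.179, q = 0.00527), 0.97 (SE 0.179, q = 0.00543) and 0.94 (SE 0.2, q = 0.0212) at 24, 48 and 72 h. *Tapbpl*, which encodes the tapasin-related editor TAPBPR, had 0.38 (q = 0.427), 0.55 (q = 0.0525) and 0.64 (SE 0.153, q = 0.0429), and was called at 72 h. *B2m* (chr2:122147687-122153082) was at 12.78, 12.87 and 12.86 with TNF at 24 h, against 12.02, 12.39 and 12.16 without. The 48 h arrays were at 13.04, 13.23 and 12.93 with TNF, against 12.22, 12.46 and 12.25 without. These groups did not overlap, and the light chain was 0.65 higher at 24 h (SE 0.125, q = 0.00949), and at 48 h 0.76 higher (SE 0.125, q = 0.0016). At 72 h the value was 0.56 (SE 0.14, q = 0.0524, not called). *Erap1*, the trimming aminopeptidase, rose by 0.72 (SE 0.143, q = 0.0111) and 0.75 (SE 0.143, q = 0.00654) at 24 and 48 h, with 0.58 (q = 0.0896) at 72 h.

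The general ER chaperones of this set did not pass the test at any time. *Canx*, *Calr* and *Pdia3*, which encode calnexin, calreticulin and ERp57 and serve many glycoproteins, had log2 fold changes between −0.17 and 0.07 over the 4 times, with q of 0.529 or more. *Pdia3*, for example, was at 12.24, 12.35 and 12.08 in TNF-treated NSPs at 48 h, against 12.16, 12.38 and 12.20 in untreated NSPs. At 72 h every TNF-treated array lay below every untreated one for each of these genes, as for 22% of all probe sets. This also held for *Calr* at 48 h, as for 5.76% of all probe sets. Several calls of the loading genes were lost when 1 array was left out, though the log2 fold changes kept their sign. They ran from 0.56 to 0.75 for *B2m* at 24 h, and from 0.63 to 0.79 and 0.65 to 0.88 for *Erap1* at 24 and 48 h. At 72 h they ran from 0.92 to 0.98 for *Tapbp* and from 0.57 to 0.71 for *Tapbpl*. *B2m* lost its call at 24 h without untreated replicate 1 or 3 or TNF-treated replicate 2 (q up to 0.0883), *Erap1* at 24 h without replicate 3 of either group (q up to 0.11) and at 48 h without TNF-treated replicate 2 or untreated replicate 3 (q up to 0.0666), *Tapbp* at 72 h without any array but untreated replicate 2 (q up to 0.256), and *Tapbpl* at 72 h without any 1 array (q up to 0.449).

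**Figure D4:**
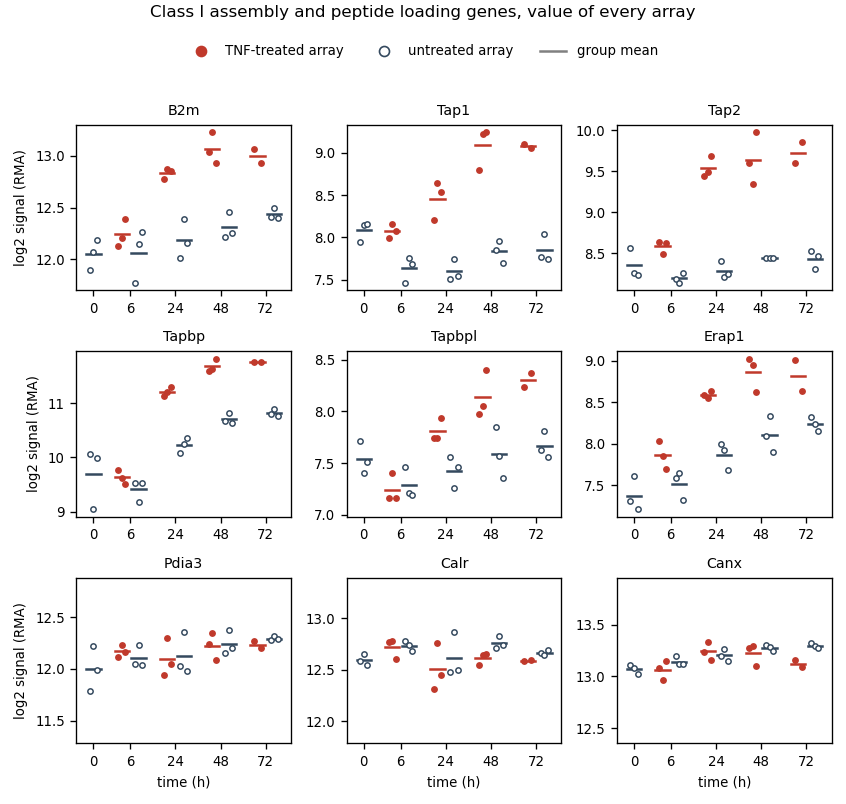
Log2 signal (vertical axis) of every array at 0, 6, 24, 48 and 72 h (horizontal axis) for the 9 class I assembly and loading genes, with filled points for TNF-treated and open points for untreated arrays and bars for group means. *Tap1* and *Tap2* lie higher with TNF at every time, while *Pdia3*, *Calr* and *Canx* have TNF effects of −0.17 to 0.07.

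The class II genes were not called at any time. Over the 9 probe sets the log2 fold changes ran from −0.17 to 0.19 at 6 h, −0.03 to 0.44 at 24 h, −0.21 to 0.46 at 48 h and −0.17 to 0.49 at 72 h, with q of 0.507 or more. *H2-Ab1*, the β chain of the I-A molecule, had the highest value at 24, 48 and 72 h. It was at 7.14, 7.0 and 7.63 in TNF-treated NSPs at 24 h, against 6.80, 6.89 and 6.77 in untreated NSPs. At 48 h it was at 7.07, 7.31 and 7.79 with TNF, against 7.05, 6.92 and 6.82 without. At 72 h it was at 7.13 and 7.49 with TNF, against 6.62, 6.89 and 6.97 without. The groups did not overlap at these times, yet with 0.44 (SE 0.216, q = 0.923), 0.46 (SE 0.216, q = 0.663) and 0.49 (SE 0.242, q = 0.543) none of the values was called. *H2-Aa*, its α chain partner, was dim, at 5.75, 5.67 and 5.95 with TNF at 48 h, against 5.7, 5.69 and 5.59 without. At 24 h the groups of *H2-Aa* did not overlap, and the value of 0.41 (SE 0.154, q = 0.507) was not called. The peptide editor gene *H2-DMa* was not dim and had 0.32 at 48 h (SE 0.141, q = 0.606). *H2-Ea*, annotated as a transcribed pseudogene, was among the dim ones.

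*Cd74* encodes the invariant chain that guides class II molecules to endosomes, and was dim. It was at 6.37, 6.32 and 6.52 in TNF-treated NSPs at 24 h, against 5.93, 5.86 and 6.05 in untreated NSPs. At 48 h it was at 6.17, 7.33 and 6.84 with TNF, against 6.34, 5.97 and 5.92 without. At 72 h it was at 6.41 and 6.61 with TNF, against 5.98, 6.06 and 6.00 without. The TNF-treated array of replicate 1 at 48 h lay below 1 untreated array, and the groups did not overlap at 24 and 72 h. The values of 0.46 (SE 0.201, q = 0.775), 0.70 (SE 0.201, q = 0.129) and 0.50 (SE 0.225, q = 0.467) were not called. Without TNF-treated replicate 1 the 48 h value was 1.01 and was called (q = 0.0025). With array weights *Cd74* was called at 48 h (0.89) and 72 h (0.50), *H2-Aa* at 24 h (0.42) and *H2-Ab1* at 72 h (0.50). Fitting only the arrays compared also called *Cd74* at 72 h. Markers of immune and vascular cells were also read. Of 14 microglia and macrophage markers 11 were dim, *Ptprc*, *Csf1r* and *Aif1* among them, and the mean of the 14 was 6.83 to 7.05 in TNF-treated NSPs at 24 h, against 6.72 to 6.74 in untreated NSPs, and 6.67 to 6.76 with TNF at 48 h, against 6.65 to 6.95 without. At 72 h it was 6.61 to 6.64 with TNF, against 6.67 to 6.71 without. *Cd68*, a lysosomal glycoprotein gene of that list, was called at 24 h (2.13, SE 0.411, q = 0.00949), with 10.15, 11.89 and 11.08 in TNF-treated NSPs, against 8.05, 10.16 and 8.53 in untreated NSPs. The other 13 were called at no time. All 6 dendritic and B cell markers and 7 of 9 endothelial and mural markers were dim, with none called. The part of such cells in the values was not tested.

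**Figure D5:**
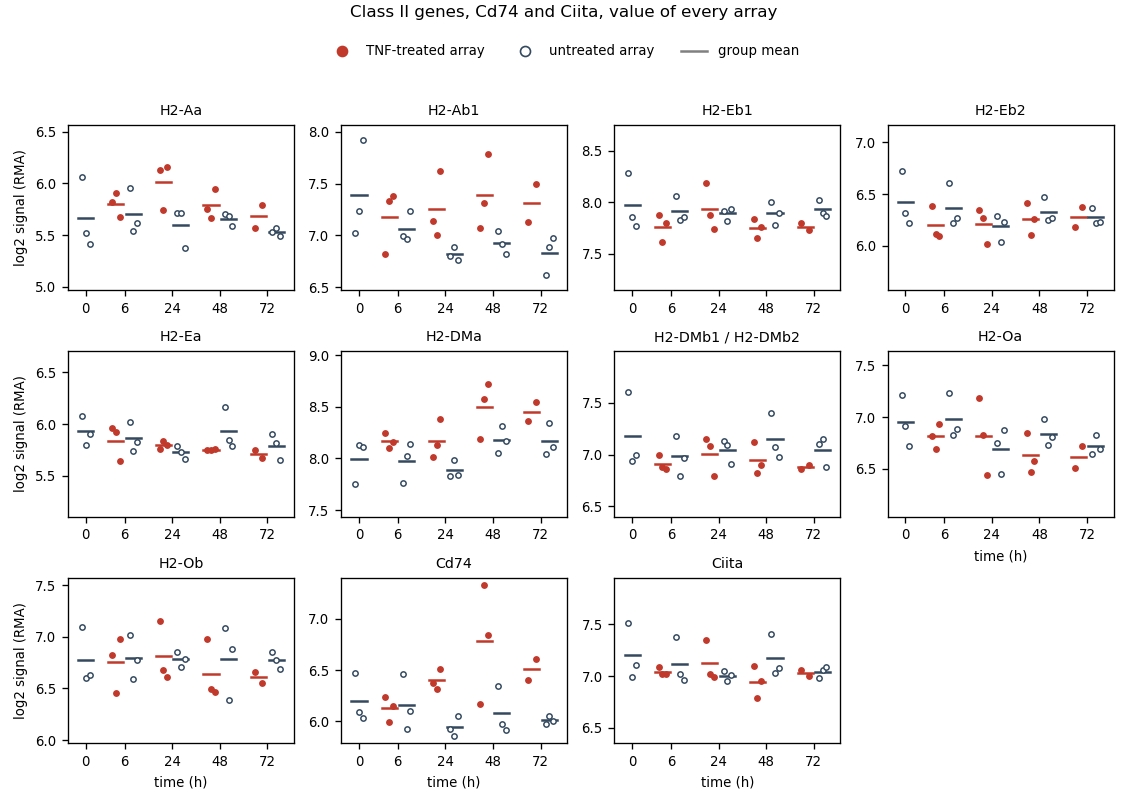
Log2 signal (vertical axis) of every array at 0, 6, 24, 48 and 72 h (horizontal axis) for the 9 class II probe sets, *Cd74* and *Ciita*, with filled points for TNF-treated and open points for untreated arrays and bars for group means. None was called; *Cd74* reached its highest value of 7.33 on 1 TNF-treated array of 48 h, and *H2-Ab1* was 0.44 to 0.49 higher on average with TNF from 24 h on.

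Neither transactivator was called. The 19 *Nlrc5* probe sets, of which 6 were dim, had TNF effects of −0.24 to 0.18 at 6 h, −0.06 to 0.36 at 24 h, −0.22 to 0.30 at 48 h and −0.21 to 0.32 at 72 h, with q of 0.472 or more. Their medians were −0.03, 0.20, −0.01 and 0.00. *Ciita*, which is silent in most cells outside the immune system, was at 7.10, 6.79 and 6.95 in TNF-treated NSPs at 48 h, against 7.41, 7.03 and 7.08 in untreated NSPs (−0.23, SE 0.137, q = 0.784). Its other values lay between −0.08 and 0.12. *H2-Ke6* had values of −0.21 to 0.13 and was not called.

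For 3 class I heavy chain probe sets the TNF effect was larger at a late time than at 6 h. The effect at 48 h minus that at 6 h passed the test for 1 member, where 0.104% of all probe sets did. This was the class Ia probe set that lists *H2-D1* first, by 1.54 (SE 0.291, q = 0.0378). The effect at 72 h minus that at 6 h passed for 3 members, against 0.124% of all probe sets. These were the same class Ia probe set by 1.57 (SE 0.308, q = 0.0457), *H2-Q4* by 1.9 (SE 0.365, q = 0.0414) and *H2-M2* by 1.88 (SE 0.355, q = 0.0374). The other class Ia probe set, which names the same genes, had differences of 1.53 at 48 h and 1.51 at 72 h that were not called. With the replicate number as a block both class Ia probe sets were called in both differences. For 24 h minus 6 h 0 members passed in limma, against 0.0253% of all probe sets. An unadjusted p under 0.05 was found for 12 of 67 members and for 947 of all 35556 probe sets. Between 72 and 24 h, a comparison added after the data were seen, 0 members passed, against 0.0281% of all probe sets. Here 4 members had an unadjusted p under 0.05 (both class Ia probe sets, *H2-Q4* and *H2-M2*, with differences of 0.83 to 1.11), as had 974 of all 35556 probe sets. The comparisons with 6 h share the arrays of 6 h, and each of the 4 differences kept its call without only 2 or 3 of the 11 or 12 arrays left out in turn.

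Within the TNF-treated groups the 13 called members often had the same array lowest. Replicate 1 was the lowest of the 3 TNF-treated arrays for 10 of the 13 at 24 h and for 10 of the 13 at 48 h, and at 6 h for 4 of the 13. This order was not counted over all probe sets. The 13 were picked by their calls on these arrays and are not independent of each other. In *H2-M2* and *Cd74* at 48 h replicate 2 was highest. Without replicate 1 of every group, which leaves 2 arrays a group at 24 h, 4 members were called at 24 h. No count over all probe sets was taken for that fit, so that a loss of calls in general cannot be told from 1 of these members.

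During differentiation without TNF, some members also changed. At 6, 24, 48 and 72 h against 0 h, 2, 8, 9 and 13 of the 67 members were called, where 7.67%, 16.5%, 16% and 22.8% of all probe sets were. Called higher were 1.49%, 8.96%, 13.4% and 17.9% of the members, against 4.64%, 10%, 8.99% and 12.6% of all probe sets. The probe sets of the gene *Nlrc5* made up 1 of 1, 4 of 6, 7 of 9 and 7 of 12 of these members. *Tapbp* had the largest increase, and the untreated arrays were at 10.06, 9.04 and 9.99 at 0 h. They were at 9.52, 9.17 and 9.53 at 6 h, and at 24 h they held 10.07, 10.25 and 10.36. The 48 h arrays were at 10.68, 10.81 and 10.63, the 72 h arrays at 10.81, 10.89 and 10.76. The arrays of 48 and 72 h all lay above those of 0 h. It was 1.12 higher at 72 h than at 0 h (SE 0.179, q = 6.51e-05), *Erap1* 0.86 (SE 0.143, q = 9.76e-05), the class Ia probe set that lists *H2-D1* first 0.61 (SE 0.205, q = 0.0221), *B2m* 0.38 (SE 0.125, q = 0.0193) and *Canx* 0.22 (SE 0.075, q = 0.0212). Of the 19 *Nlrc5* probe sets 7 were higher at 72 h, by 0.34 to 0.76, and the other 12 were not called. *H2-Ab1* was lower at 72 h, with a log2 change of −0.57 (SE 0.216, q = 0.0381), with 1 array of 0 h at 7.92 and the other two at 7.02 and 7.24. The next lowest were *H2-M10.3* at −0.33 (q = 0.135) and *H2-Ke6* at −0.31 (q = 0.085), neither called. *Tap1* was lower than at 0 h at 6 h (−0.45, SE 0.134, q = 0.0341), and also on the 24 h arrays (−0.49, SE 0.134, q = 0.0103). Of these 72 h calls, those of class Ia and *B2m* were lost without untreated 0 h replicate 1 or 72 h replicate 2 (q up to 0.127), that of *Canx* without 72 h replicate 1 or 2 (q up to 0.0662), that of *H2-Ab1* without any array of 72 h or 0 h replicate 3 (−0.30 at the least, q up to 0.133), and those of 3 *Nlrc5* probe sets without several arrays (q up to 0.14). In 1 of these 3 the value of 0.39 was 0.20 without 0 h replicate 3.

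Other genes of the pathway, from lists that are not members, were read in the same fit. Of the 5 genes of the immunoproteasome and its activator, which cut peptides that suit class I, 0, 2, 3 and 4 were higher with TNF at 6, 24, 48 and 72 h. None was lower. *Psmb8* rose by 0.64, 0.88 and 1.08 at 24, 48 and 72 h (SE 0.125 to 0.139, q = 0.00956, 0.000281 and 0.000125), and *Psmb9* by 0.47, 0.54 and 0.56 (q = 0.0157, 0.00373 and 0.00958). *Psmb10* was called at 48 h with 1.16 (SE 0.247, q = 0.0183) and, later, at 72 h with 1.28 (SE 0.276, q = 0.0235), and *Psme2* rose by 0.63 at 72 h (SE 0.136, q = 0.0234). Of 11 measured transcription factors of class I and class II promoters 2 were higher at each time. *Irf1*, an interferon regulatory factor, rose by 1.19, 1.54, 1.98 and 2.0 at 6, 24, 48 and 72 h (q of 0.000127 or less), and *Relb*, an NF-κB subunit, by 1.14, 1.36, 1.37 and 1.69 (q of 5.85e-05 or less). The subunits of the RFX and NF-Y complexes, which bind class I and class II promoters, were not called. Among 9 interferon receptor and ligand genes *Ifngr2* rose by 0.72, 1.14, 1.19 and 1.33 (q of 0.000976 or less) and *Ifngr1* by 0.72 at 48 h (SE 0.156, q = 0.0217), while *Ifng* and *Ifnb1* were dim and not called. None of 6 class I-like genes elsewhere in the genome, 7 genes of class II proteolysis and traffic and 7 ER quality control genes was called at any of the 4 times.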

How the data were processed

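The deposited values are log2 signals. The authors computed them with the RMA method of oligo, running R 3.3.1: background is corrected, array distributions are made equal, and each probe set gets 1 summary value. The sources used here name no version for oligo. RMA compresses differences of dim probe sets. Gene names came from the platform annotation, and coordinates and sequences from RefSeq (GRCm38.p6), where 77 of 78 gene IDs of members were found. Raw array files were not used here.

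A linear model with 9 group means was fitted to the 26 arrays (limma 3.58.1, R 4.3.3), without further normalization. TNF-treated minus untreated NSPs at each time, the differences of these effects from that at 6 h, and untreated NSPs at each time minus 0 h were tested. An own implementation of the qvalue smoother gave q-values over 35556 probe sets. The script was tested on simulated data. Groups of 3 arrays, and of 2 for TNF-treated NSPs at 72 h, limit what can be resolved.

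Same-numbered arrays were taken as paired where their deviations from group means correlated above 0.1 in all 3 pairs over all probe sets. This held at 6 h (0.674, 0.559 and 0.461) but not at 24 h (0.384, 0.471 and 0.0263), 48 h (0.309, 0.608 and −0.0238) or 72 h (0.0795 and −0.0156, 2 pairs). The pairing rests on these correlations alone.

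Values are given for each member called in a TNF effect or a difference of effects, for *H2-K1*, *H2-D1*, *H2-T23*, *H2-Aa*, *H2-Ab1* and the members outside the H2- group, for the 3 highest and 3 lowest in untreated NSPs at 72 h, and for called genes of other pathway lists. Other genes named were chosen after their values were seen. Members, lists and motifs were chosen with earlier results of these data known. Alternatives were each array left out, the replicate block, array weights, an intensity trend, cyclic loess, no dim probe sets, fitting only the arrays compared, and Benjamini-Hochberg adjustment.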

Additional observations from a re-analysis of the deposited data

Results flagged for a closer look

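For 3 probe sets the TNF effect differed between times by a test of the difference itself. In class Ia, the probe set that lists *H2-D1* first had a TNF effect that was larger by 1.54 at 48 h than at 6 h and by 1.57 at 72 h than at 6 h. The other class Ia probe set had 1.53 and 1.51, which were not called. For *H2-Q4* the effect at 72 h was larger by 1.9 than that at 6 h, and for *H2-M2* by 1.88. Leaving out each array in turn gave differences of 1.39 to 1.77, 1.43 to 1.74, 1.75 to 2.15 and 1.69 to 2.06, with calls kept without 3 of 12 arrays for the first and without 2 of 11 arrays for each of the others. With the replicate number as a block the q-values were 0.000434, 0.000681, 0.00243 and 0.0472.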

How the results depend on the processing

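All calls of single members kept their direction under the alternatives run. Of 48 called values, 350 of 400 checks kept the call, and 207 of 299 did when 1 array was left out. Of 129 values that were not called, 42 of 1049 checks gave a call, as did 4 of 744 with 1 array left out (*Cd74*, *H2-Q5* and, for 2 arrays, *Tapbpl*, all at 48 h). With only the arrays compared, the members called were 0 for 48 h minus 6 h, 1 for 72 h minus 6 h and 4 for untreated NSPs at 72 h against 0 h. With array weights, whose estimation stopped before it converged, they were 5 at 6 h, 21 at 72 h, 8, 13 and 15 for 24, 48 and 72 h minus 6 h, and 22 for untreated NSPs. With the replicate block they were 1 at 6 h (*Tap1*), 10 at 24 h, 13 and 12 at 48 and 72 h, 4 and 6 for 48 and 72 h minus 6 h, and 20 for untreated NSPs, and 14 of 18 arrays of 6, 24 and 48 h correlated best with their own number. With this block 186, 388, 469 and 563 of all 35556 probe sets were higher with TNF at 6, 24, 48 and 72 h. Higher were 48 and 49 for 48 and 72 h minus 6 h, and for untreated NSPs at 72 h 5826 were higher and 6329 lower. For array weights and for only the arrays compared no count over all probe sets was taken. With the second TNF-treated array of 72 h as number 3 in the block, a choice made after seeing the data as was the next, 6 were called for 72 h minus 6 h. Without replicate 1 of every group, which leaves 2 arrays a group, 4 were called at 24 h, 0 for 48 h minus 6 h and 8 for untreated NSPs. TNF at 72 h keeps only 1 array in that fit, and its counts are not given. No count over all probe sets was taken without replicate 1. The cause of these moves was not tested beyond the smaller number of arrays.

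Leaving out each array in turn gave 6 to 10 members at 24 h (6 without untreated replicate 3), 9 to 14 at 48 h, 6 to 9 at 72 h (6 without TNF-treated replicate 1), 0 at 6 h, 0 for 24 h minus 6 h, 0 to 3 for 48 h minus 6 h, 0 to 2 for 72 h minus 6 h, and 7 to 16 for untreated NSPs (7 without replicate 2 of 72 h). With 1 array left out, calls were not counted over all probe sets. A loss of calls in general can thus not be told from a loss among the members. Signals of the 34 dim probe sets, most of class Ib and class II among them, lie near background, where a difference may go undetected.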
